A study of Saccharomyces cerevisiae with 4 samples.

Results

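Budding yeast cells that lack REG1 were compared with wild-type cells of the same strain, both untreated, on 2 spotted 2-colour arrays. These are 2 of the 4 arrays of the series, chosen by their titles, and each array holds RNA of the mutant in one dye and RNA of the wild type in the other. Of the 6212 rows of the deposited table, named by open reading frame, 6013 were used and 4765 were measured on both arrays. The other 2 arrays of the series, used here only for contrast, set reg1 cells given 16 mM KOH for 10 min, which brought the medium to about pH 8, against reg1 cells given 16 mM KCl.

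Both cultures were labelled strain DBY4741. The mutant carried reg1::KanMX, a replacement of REG1 by a drug-resistance cassette, and the wild type carried no change that the labels name. The medium was YPD, which is rich in glucose, and untreated cells were harvested at an absorbance (A660) of 0.6 after growth at 28 °C. The mutant RNA was in Cy5 in experiment 1 and in Cy3 in experiment 2. The labels name 1 mutant strain and do not say whether the experiments were separate cultures or whether several clones were used. The p-values below therefore measure only the spread between arrays, with the other 2 arrays of the series included, and that spread may be technical. Each channel held RNA of a whole culture, so a change in all cells and a change in some of them cannot be told apart.

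Reg1 is a regulatory subunit that brings the protein phosphatase Glc7 to its substrates. In glucose medium Reg1-Glc7 keeps the kinase Snf1, the yeast AMP-activated kinase, inactive. Active Snf1 relieves the repressor Mig1 and turns on factors such as Adr1 and Cat8, and genes for other sugars, respiration and gluconeogenesis are then expressed.

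Values are log2 ratios of reg1 over wild type. A gene is given as its ratio in experiment 1, its ratio in experiment 2 and the mean ± SD (n = 2 throughout). A gene was called when limma's adjusted p, taken over all 4765 rows, was under 0.05. The estimate of the spread used all 4 arrays for the 4315 genes measured on all of them. For a gene that lacked an alkali value, its own spread came from the mutant arrays only. From YKL011C to YPR204W, 2794 rows, the mutant columns are displaced against the names, so each gene's value was taken from the row 2 further down, and 199 rows from YAL067C to YBR047W were left out, which takes GAL1, GAL7 and GAL10 out of the results. In the 2794 rows, the numbers of mutant and alkali arrays with a value correlated at r = 0.042 at the names and at r = 0.753 read 2 rows below. The mean ratios of both comparisons correlated at r = 0.034 over 1698 rows and 0.373 over 2006 rows, and in 28 of 28 windows of 100 rows the best match was 2 rows below. In the 3152 rows read at their names these correlations were 0.706 and 0.327, and in 32 of 32 windows the best match was there. The first 67 rows were also read at their names, where the numbers of arrays with a value correlated at r = 0.707, though their mean ratios correlated at 0.139 there and at 0.496 one row away (52 and 45 rows). The 8 respiratory chain genes of the displaced rows had a median of 1.13 read 2 rows below, and the 11 in rows read at their names had 1.26. At their names the displaced ones had a median of -0.38 over 6 genes.

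REG1 itself (YDR028C) gave -1.10 and -0.96, a mean of -1.03 ± 0.10 and 2.04-fold below wild type (adjusted p = 0.0313, limma). Both arrays put it lower in the mutant, which is the direction that the labels imply. The size is small for a gene that the labels give as replaced: VBA5, the lowest gene, was 8.68-fold below wild type. Why the ratio of REG1 was not lower was not tested. The adjusted p of REG1 was 0.0686 when the spread was estimated without the alkali arrays, from 2 arrays only. REG1 had no value on the alkali arrays, so that setting took away no value of REG1 itself. That setting is called the 2-array estimate below, and calls that it ends are named or counted with their group. It ended 188 of the 341 calls given next. Its neighbour VPS54, which encodes a Golgi tethering subunit, gave 0.04 and -0.03, and NSI1 on the far side of VPS54, an rDNA-binding protein, gave 0.06 and -0.57 (adjusted p = 0.474). YDR029W, the neighbour on the other side, gave -0.80 on experiment 1 and no value on experiment 2.

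Of the 4765 genes, 341 were called, 7.16% of them. Of these, 248 (5.2%) were higher in reg1 and 93 (1.95%) lower, and all 341 had the same sign on both arrays. The mean was 2-fold or more for 224 of them, and the median of the called genes was 1.25 for the higher and -0.96 for the lower. Without any model, 138 genes (2.9%) were at 2-fold or more above wild type on both arrays, 34 (0.714%) were at 2-fold or more below, and 1 was on opposite sides. That one was RTS2, a zinc-finger protein gene, at 1.52 and -1.44. Across genes the arrays correlated at r = 0.591, against 0.956 for the alkali arrays. The median absolute difference was 0.32 between the mutant arrays and 0.18 between the alkali arrays. The spread behind the calls is thus partly that of the alkali arrays, which varied less. Values on all 4 arrays were present for 240 of the 248 genes called higher and for 73 of the 93 called lower.

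**Figure D1:**
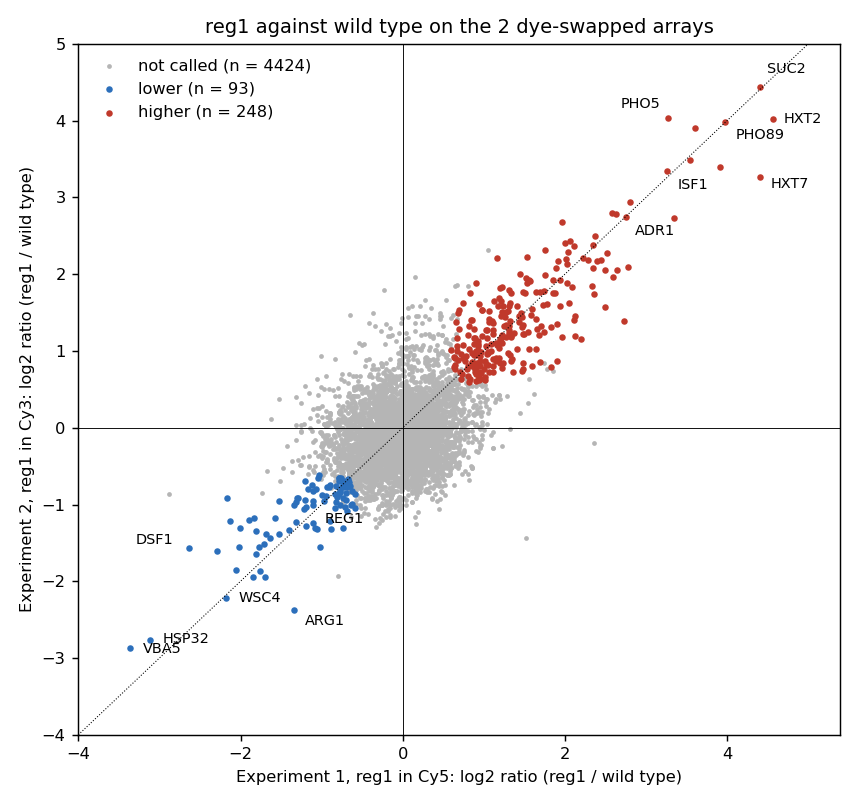
Log2 ratio of reg1 over wild type in experiment 1 (horizontal axis, reg1 in Cy5) against experiment 2 (vertical axis, reg1 in Cy3), 1 point per gene. The 248 genes called higher (red) and the 93 called lower (blue) lie near the dotted line of equal values, and SUC2, HXT2 and PHO89 stand at the top while VBA5 and HSP32 stand at the bottom.

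Among the genes of the Reg1-Glc7 and Snf1 system, the substitute regulatory subunit and the main hexokinase were higher in reg1, and the kinase subunits were not called. REG2, a second targeting subunit of Glc7, gave 1.58 and 1.47, a mean of 1.53 ± 0.07 (adjusted p = 0.00638, limma). Its row lies within 20 rows of the place where the table changes register. HXK2, a hexokinase that also takes part in glucose repression, gave 1.65 and 1.02 (mean 1.34 ± 0.44, adjusted p = 0.0227). The phosphatase gene GLC7 gave 0.18 and 0.32, and the Snf1 subunit genes SNF4, SIP1, SIP2 and GAL83 had means between -0.11 and 0.34. The genes for the kinases that activate Snf1, SAK1, TOS3 and ELM1, had means of -0.08, -0.20 and -0.20, none of them called. In all, 2 of the 12 measured members were called higher (16.7%) and 1, REG1, lower (8.33%), beside 5.2% and 1.95% over all genes. SNF1 was not measured on both arrays. On the 2-array estimate REG2 was the only call of this list.

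Of the 17 measured factors that act downstream of Snf1, 4 were called (23.5%) and all 4 were higher, beside 5.2% over all genes. ADR1, which activates genes for ethanol and fatty acid use, gave 2.75 on both arrays, 6.72-fold above wild type (adjusted p = 0.00137). CAT8, the activator of gluconeogenic genes, gave 1.27 and 1.51, a mean of 1.39 ± 0.17 (adjusted p = 0.0166). Its call was lost without experiment 2. MIG1, the glucose repressor, gave 1.21 and 1.45 (adjusted p = 0.00802), so the transcript of the repressor itself was higher in the mutant. HAP2, a subunit of the activator of respiratory genes, gave 0.88 and 1.09 (adjusted p = 0.0201). Its call was lost on the 2-array estimate. The other repressors went to either side without passing the test. MIG2 gave 0.53 and 1.15 (adjusted p = 0.0624) and MIG3 gave -1.51 and -0.70 (adjusted p = 0.0726). The general stress factors MSN2 and MSN4 had means of 0.07 and 0.00. None of the 7 measured genes of the separate glucose-sensing route through Snf3, Rgt2 and Rgt1 was called, and their median was 0.14. In a list of 7, no call is close to the 7.16% called over all genes.

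The hexose transporter genes held the widest range of any list, from -1.29 to 4.29, with 6 of 13 called higher and 2 called lower. These were 46.2% and 15.4% of the list, beside 5.2% and 1.95% over all genes. HXT2, a high-affinity glucose transporter, gave 4.57 and 4.02, a mean of 4.29 ± 0.39 and 19.6-fold above wild type (adjusted p = 0.000601, limma). HXT7 gave 4.41 and 3.27, HXT6 2.78 and 2.09, and HXT4 3.92 and 3.40. These 3 genes also encode transporters of high or intermediate affinity, and all 4 were higher on both arrays by more than the arrays differed. HXT6 and HXT7 are near-identical in sequence, so spots for either may hold signal of both. HXT3, a low-affinity transporter, gave 2.73 and 1.39 (adjusted p = 0.0201), and HXT1, the other main low-affinity transporter, gave 1.74 and 0.85 and was not called (adjusted p = 0.0581). HXT5, a transporter of slow growth, was higher by 1.01 ± 0.20. The 2 that fell were the subtelomeric HXT13, at -1.32 and -1.23, and HXT17, at -1.02 and -1.55, with adjusted p = 0.0179 and 0.016. HXT11, another of the less expressed members, gave -0.73 and -0.96 (adjusted p = 0.0549), and the galactose transporter gene GAL2 gave 0.15 and 0.11. HXT13 lost its call when either mutant array was left out, and HXT5 and HXT17 lost theirs on the 2-array estimate.

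All 4 genes for the enzymes that phosphorylate hexoses, or resemble them, rose. HXK1, the hexokinase of non-glucose media, gave 3.60 and 3.90, 13.5-fold above wild type (adjusted p = 0.000601). GLK1, glucokinase, gave 1.65 and 1.77 (adjusted p = 0.00364), and EMI2, a glucokinase-like gene, gave 1.36 and 0.72 (adjusted p = 0.0426). HXK2 is given above. The 2-array estimate left 2 of the 4 called, HXK1 and GLK1. None of the 20 genes of glycolysis and fermentation was called, beside 7.16% over all genes. Their means lay between -0.06 and 0.28 with a median of 0.08.

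Of 12 measured genes for sucrose, maltose and galactose use 5 were called (41.7%), all higher, beside 5.2% over all genes. The list's median was 0.21. SUC2, which encodes invertase, gave 4.41 and 4.44, a mean of 4.43 ± 0.02 and the largest of all 4765 genes (adjusted p = 0.000601). At the MAL3 locus, the activator gene MAL33 gave 2.80 and 2.94, the maltase gene MAL32 2.63 and 2.78, and the maltose permease gene MAL31 1.34 and 1.76. MAL12, the maltase gene of another locus, gave 1.91 and 2.17, and it is near-identical to MAL32. The arrays differed by less than 0.5 for each of these genes. GAL3, the galactose sensor, and GAL80, the inhibitor it binds, had means of -0.16 and 0.07, and the isomaltase genes IMA1, IMA2, IMA3 and IMA4 had means of 0.35, 0.07, -0.34 and -0.12. MPH2, a permease for maltose and related sugars, gave -0.98 and -0.11. None of these 7 genes was called. The count of called genes was also 5 on the 2-array estimate and when either mutant array was left out.

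Of 6 measured phosphate transport genes 3 were called (50%, beside 5.2% called higher over all genes), all higher. Yeast senses phosphate through the PHO pathway, in which the inhibitor Pho81 restrains the kinase Pho80-Pho85 and lets the activator Pho4 switch on transporters, phosphatases and polyphosphate enzymes. PHO89, a sodium-coupled phosphate transporter, gave 3.97 and 3.98, 15.7-fold above wild type (adjusted p = 0.000601, limma). PHO84, the high-affinity proton-coupled transporter, gave 3.35 and 2.73 (adjusted p = 0.00458). PHO86, which is needed for Pho84 to leave the endoplasmic reticulum, gave 0.65 and 0.82 (adjusted p = 0.0448). The uncalled members were the low-affinity transporter gene PHO91 (mean 0.27 ± 0.12), the mitochondrial phosphate carrier gene PIC2 (0.57 and 0.88, adjusted p = 0.0566) and SND3, also known as PHO88 (-0.36 and -0.07). By row name PHO89 stands directly before MAL33, MAL31 and MAL32, so 4 neighbouring names were all called higher.

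Of 6 measured phosphatase genes 4 were called (66.7%, beside 5.2% called higher over all genes), all higher. PHO5, the main repressible acid phosphatase, gave 3.27 and 4.03 (mean 3.65 ± 0.53, adjusted p = 0.00179), and PHO12, a close relative, gave 3.54 and 3.49 (adjusted p = 0.000601). PHO3, the acid phosphatase next to PHO5, gave 2.49 and 1.57 (adjusted p = 0.0201). These genes are alike in sequence and may share signal. The vacuolar alkaline phosphatase gene PHO8 gave 1.83 and 0.79 (adjusted p = 0.0479), and the cytosolic phosphatase genes PHM8 and PHO13 had means of 0.43 and -0.07. PHO3 lost its call without experiment 1 and PHO8, like PHO86, on the 2-array estimate.

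Of the PHO regulators and polyphosphate genes, 6 of 14 were called (42.9%, beside 5.2% called higher over all genes), all higher. They were the inhibitor gene PHO81 (1.47 and 1.44), SPL2, which acts on the low-affinity transporters (2.29 and 2.19), and the 4 genes of the vacuolar polyphosphate polymerase complex. VTC3 gave 2.35 and 2.38, VTC1 1.65 and 1.42, and VTC2 1.23 and 0.78, and VTC4 had a mean of 1.36. The kinase and activator genes themselves were not called. PHO80 gave 0.95 and -0.01, PHO85 -0.20 and 0.06, PHO4 -0.26 and 0.41, and PHO2 0.54 and -0.09, so for each of these the arrays fell on opposite sides of 0. Of the 6 called genes, VTC2 lost its call on the 2-array estimate.

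**Figure D2:**
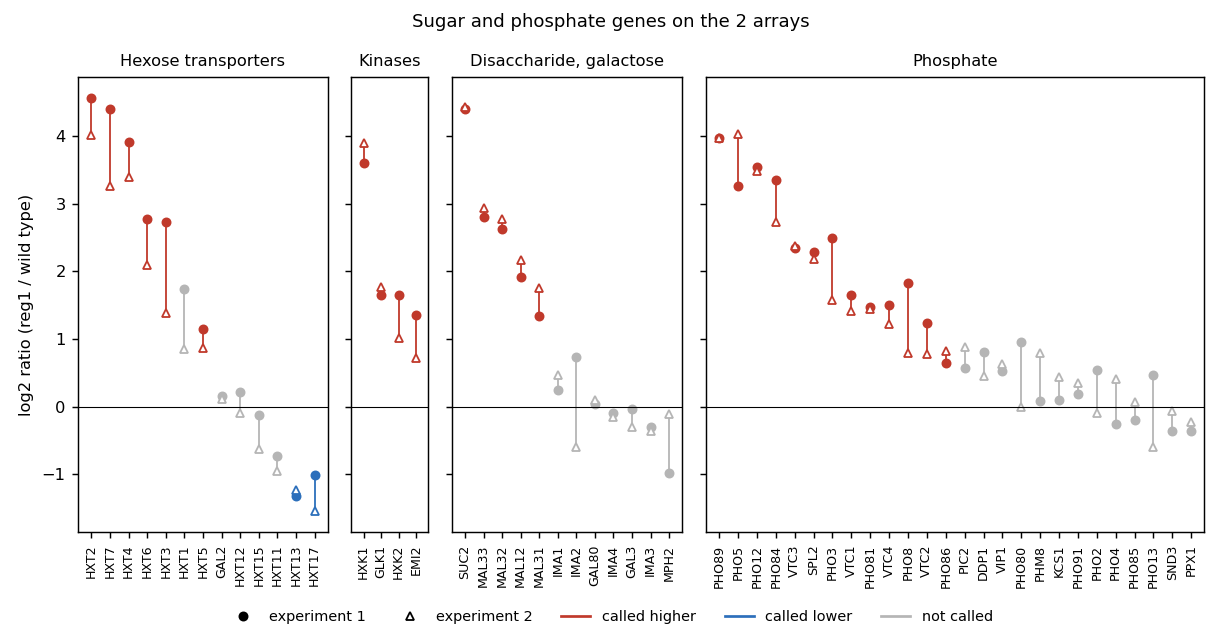
Log2 ratio of reg1 over wild type for each measured gene of the hexose transporter, hexose kinase, disaccharide and galactose, and phosphate lists, with experiment 1 as filled circles, experiment 2 as open triangles and a line between them. Red genes were called higher, blue genes lower and grey genes were not called; HXT13 and HXT17 are the blue pair, and SUC2 and PHO89 gave nearly the same value on both arrays.

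Of the 19 measured respiratory chain genes 13 were called (68.4%), all higher, beside 5.2% over all genes. The list's median was 1.26 against -0.05 over all genes tested. NDE1, the external NADH dehydrogenase, gave 2.52 and 2.28 (mean 2.40 ± 0.17, adjusted p = 0.00238), and the internal one, NDI1, gave 1.69 and 1.77. In the cytochrome bc1 complex QCR10 gave 1.75 and 1.99, CYT1, cytochrome c1, gave 2.12 and 1.46, and QCR6 gave 1.53 and 1.88. QCR7, QCR8 and QCR9 were called too, with means of 1.22, 1.08 and 1.29. In cytochrome oxidase COX5A gave 1.66 and 1.29 (adjusted p = 0.00764) and COX4 gave 1.16 and 2.21 (adjusted p = 0.0207). COX5B, the isoform of COX5A used when oxygen is low, gave -1.32 and -0.16 and was not called (adjusted p = 0.195). DLD1, a D-lactate dehydrogenase that passes electrons to cytochrome c, gave 1.94 and 1.59. Among the uncalled, RIP1, the iron-sulfur subunit, gave 0.67 and 1.86 (adjusted p = 0.0608), and QCR2, a core subunit of the bc1 complex, gave -0.29 and -1.02 (adjusted p = 0.126).

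ATP synthase subunits were called in 10 of 12 genes (83.3%, beside 5.2% over all genes), all higher, and all 12 were above 0 on both arrays. Their means spanned a narrow range, from 0.60 to 1.76, with a median of 1.14. INH1, the inhibitor of the enzyme's reverse reaction, gave 1.74 and 1.78 (adjusted p = 0.00336). ATP2, the catalytic beta subunit, gave 2.20 and 1.16 (adjusted p = 0.0201), and ATP7, a stalk subunit, gave 1.20 and 1.82 (adjusted p = 0.0116). The row of ATP7 lies within 20 rows of a change of register. The subunits that were not called were ATP16, at 1.56 and 0.64 (adjusted p = 0.0671), and the stabilising factor gene STF2, at 0.33 and 0.88.

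In the tricarboxylic acid cycle 8 of 22 genes were called (36.4%, beside 5.2% called higher over all genes), all higher, and the median was 0.56. SDH4, the membrane anchor of succinate dehydrogenase, gave 2.34 and 1.85 (adjusted p = 0.00402), LSC2, a subunit of succinyl-CoA ligase, gave 1.75 and 2.31, and MDH1, mitochondrial malate dehydrogenase, gave 1.90 and 1.35. SDH2, CIT1, SDH1, ACO1 and LPD1 followed with means from 1.44 down to 0.80. Members were uneven within 1 enzyme: SDH3, the other membrane anchor of succinate dehydrogenase, gave 0.18 and 0.14. KGD2 gave 1.85 and 0.74 (adjusted p = 0.0507) and FUM1, fumarase, 0.13 and -0.64. On the 2-array estimate 8 of the 19 respiratory chain genes, 4 of the 12 ATP synthase genes and 5 of the 22 cycle genes were called. The respiratory chain count was 13 higher and 1 lower without experiment 1 and 9 without experiment 2, and that of ATP synthase was 6 and 7.

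None of the 64 measured genes for mitochondrial ribosomal proteins, which make the ribosome that translates mitochondrial genes, was called, beside 7.16% over all genes. Their median was 0.14. On both arrays 19 of them were above 0 and 7 below.

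**Figure D3:**
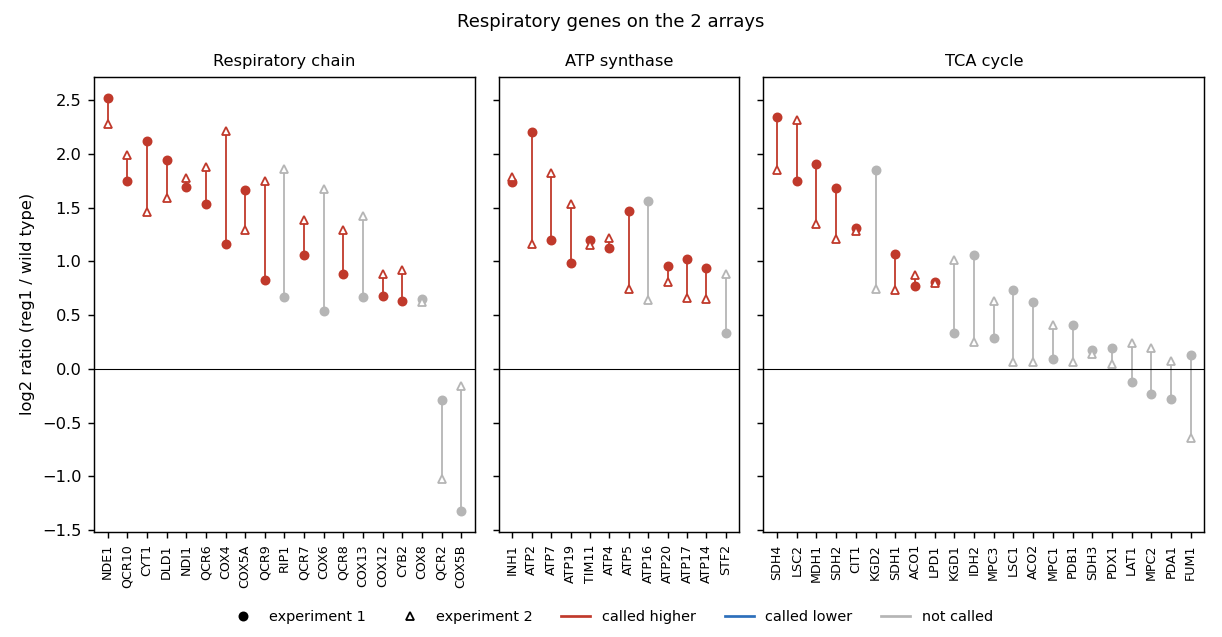
Log2 ratio of reg1 over wild type for each measured gene of the respiratory chain, ATP synthase and tricarboxylic acid (TCA) cycle lists, with experiment 1 as filled circles and experiment 2 as open triangles. All 12 ATP synthase genes lie above 0 on both arrays, and QCR2 and COX5B are the respiratory chain genes below 0.

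Of 16 gluconeogenesis and glyoxylate cycle genes 5 were called higher (31.2%), beside 5.2% over all genes. The other 11 were not called, and the list's median was 0.34. The called genes were IDP2, cytosolic isocitrate dehydrogenase (1.33 and 1.62), VID24, which marks gluconeogenic enzymes for degradation (1.17 and 1.59), CIT2, peroxisomal citrate synthase (1.23 and 1.21), MLS1, malate synthase (0.70 and 1.53), and PYC1, pyruvate carboxylase (0.75 and 0.91). Of 15 genes of ethanol, acetate and lactate use 2 were called higher (13.3%) and 13 were not called, with a median of 0.02. The called genes were the mitochondrial aldehyde dehydrogenase gene ALD4 (1.73 and 1.60) and the lactate permease gene JEN1 (1.02 and 0.62). In peroxisomal beta-oxidation 1 of 13 was called higher, the fatty acyl-CoA synthetase gene FAA2 (1.45 and 2.00). That is 7.69% of the list, near the 7.16% over all genes, and the median of that list was 0.04. MLS1, PYC1 and JEN1 lost their calls on the 2-array estimate.

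Storage carbohydrate genes gave 4 of 19 called (21.1%, beside 5.2% called higher over all genes), all higher. GLC3, the glycogen branching enzyme, gave 1.86 and 1.76 (adjusted p = 0.00929), PGM2, phosphoglucomutase, gave 1.47 and 1.31, GDB1, the debranching enzyme, gave 1.11 and 1.28, and GAC1, a subunit that targets Glc7 to glycogen synthase, gave 1.22 and 1.11. GLC3 and GDB1 lost their calls when either mutant array was left out. The pentose phosphate and glycerol genes gave 1 of 16, GND1 (1.04 and 1.17), which encodes 6-phosphogluconate dehydrogenase, a share of 6.25% that is near that over all genes.

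General stress genes went in both directions, with 4 of 21 higher (19%) and 2 lower (9.52%), beside 5.2% and 1.95% over all genes. OM45, a mitochondrial outer membrane protein, gave 1.60 and 1.55 (adjusted p = 0.00493), and the membrane chaperone gene HSP12 gave 0.84 and 1.41. HSP104, the disaggregase, and PNC1, a nicotinamidase, each had a mean of 0.83. HSP30, a plasma membrane heat shock protein, fell by 1.11 and the small heat shock gene HSP26 by 0.82 on the log2 scale. On the 2-array estimate OM45 was the 1 call left. Oxidative stress genes gave 1 of 21, the glutathione transferase gene GTT1, at 0.86 and 0.98. That share of 4.76% is near the 5.2% called higher over all genes.

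Genes of calcium and cell wall signalling rose in part, with 31.6% and 19.2% of their lists called higher, beside 5.2% over all genes. Of 19 calcineurin targets and cation transporters 6 were called, all higher: the calmodulin-dependent kinase genes CMK2 (2.23 and 2.21) and CMK1 (1.31 and 1.23), GYP7, a GTPase activator (1.86 and 1.92), PUN1, a plasma membrane protein (1.30 and 1.52), GSC2, a glucan synthase (1.04 and 1.28), and the calcineurin regulator gene RCN2 (1.35 and 0.90). The sodium pump gene ENA2 gave 0.02 and 0.14. Cell integrity and wall genes gave 5 of 26 higher, among them the kinase gene SLT2 (1.33 and 0.95) and its target PRM5 (1.19 and 1.69). WSC4, a member of the family of wall stress sensors, was the exception at -2.18 and -2.22 (adjusted p = 0.00464), 4.59-fold below wild type, while WSC3 of the same family gave 1.00 and 0.77. The 2-array estimate left 4 of the calcineurin genes, and PRM5 and WSC4 of the wall genes, called.

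Of 30 copper, iron and zinc genes 7 rose (23.3%, beside 5.2% called higher over all genes). FIT3, FIT1 and FIT2, cell wall mannoproteins that hold iron siderophores, gave 2.09 and 1.83, 1.69 and 0.86, and 1.03 and 1.07. FRE7, a reductase induced by low copper, gave 1.88 and 1.75, and SIT1, CTR2 and ZRT1, which transport siderophores, copper and zinc, had means of 0.94, 1.00 and 1.14. The iron regulators AFT1 and AFT2 (means 0.20 and 0.33) and the high-affinity iron uptake genes FET3 and FTR1 (0.35 and 0.03) were not called. Of the 7, FIT3 and FRE7 were still called on the 2-array estimate.

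The group with the lowest median was that of small cell wall proteins. The list held 22 measured seripauperin and anaerobic mannoprotein genes, a family of short secreted proteins that is mostly expressed without oxygen. Of these, 11 (50%) were called, all lower, beside 1.95% over all genes. All 22 means were below 0, and 21 genes were below 0 on both arrays. The median was -1.09, or -1.45 on experiment 1 and -0.85 on experiment 2. PAU5 gave -2.29 and -1.60, a mean of -1.95 ± 0.49 (adjusted p = 0.00671, limma). PAU21 gave -1.70 and -1.95, and PAU11 gave -1.81 and -1.65. The other called members were PAU12, PAU14, PAU6, PAU24, PAU1, PAU16, PAU20 and PAU18, with means from -1.66 to -0.84. PAU15 had the widest gap, with -2.88 and -0.86 (adjusted p = 0.103). PAU genes are near-identical in sequence, so these 11 calls may rest on shared signal and are not 11 separate measurements. On the 2-array estimate 8 were called.

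Of 9 measured genes of the Hsp31 and VBA families 5 were called, all lower, among them the lowest pair of all genes. That is 55.6% of the list, beside 1.95% called lower over all genes. VBA5, a plasma membrane permease, gave -3.36 and -2.87, 8.68-fold below wild type (adjusted p = 0.00349), and its relative VBA3 gave -2.13 and -1.21 (adjusted p = 0.0333). HSP32, a chaperone of the Hsp31 family, gave -3.12 and -2.76, HSP33 -2.05 and -1.85, and SNO4 -0.97 and -0.96. HSP31, the member for which the family is named, gave -0.39 and -0.09 and was not called. The related genes VBA1, VBA2 and VBA4 had means of 0.31, 0.13 and 0.24 and were not called either. HSP32, HSP33 and SNO4 are near-identical, as are VBA3 and VBA5, so within each set the signals may be shared. VBA3 lost its call without experiment 1, and SNO4 on the 2-array estimate. VBA5, VBA3, HSP32 and HSP33 had no value on either alkali array. With only rows measured on all 4 arrays, 4 genes of the list were tested and none was called.

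Of 13 measured arginine genes 4 were called lower (30.8%, beside 1.95% over all genes), 1 was called higher and 8 were not called. The list's median was -0.34. ARG1, argininosuccinate synthetase, gave -1.34 and -2.38 (mean -1.86 ± 0.73, adjusted p = 0.0201), ARG56, which acts at the start of the ornithine branch, gave -0.88 and -1.32, and ARG4, argininosuccinate lyase, gave -0.90 and -1.22. ARG7, ornithine acetyltransferase, gave -0.66 and -0.71 (adjusted p = 0.0498). CAR2, an enzyme of arginine breakdown, was the one higher, at 0.93 and 0.82, and CAR1, arginase, gave 0.33 and 0.59 without passing the test. On the 2-array estimate ARG1 was the only call of the list, and without experiment 2 there was none. Of 22 sulfur and methionine genes 2 fell, the sulfate permease gene SUL2 (-1.83 and -1.17) and MET13 (-0.95 and -0.89), a methylenetetrahydrofolate reductase. Of 17 thiamine and pyridoxine genes 1 fell, THI12 (-2.02 and -1.55), whose sequence is near-identical to other THI5 family genes. These are 9.09% of the sulfur list and 5.88% of the thiamine list, beside 1.95% called lower over all genes.

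Other decreases among the 25 lowest were DSF1, a mannitol dehydrogenase-like gene (-2.63 and -1.56), FUS1, a cell fusion gene of mating (-2.17 and -0.92, adjusted p = 0.0443), ATF2, an alcohol acetyltransferase (-1.53 and -1.38), and ARI1, an aldehyde reductase (-1.57 and -1.17). The unnamed frames YNL034W (-1.85 and -1.95), YLL065W (-1.76 and -1.86) and YLR465C (-1.81 and -1.35) were among them too. In the mating list FUS1 was the 1 gene lower of 20, and PRM4, a pheromone-regulated membrane protein, the 1 higher, at 2.36 and 1.74. Each is 5% of the list, beside 1.95% called lower and 5.2% called higher over all genes. FUS1 lost its call without experiment 1 and after centring of the arrays, ARI1 and SUL2 lost theirs without experiment 1, and ATF2 when either mutant array was left out.

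Cytosolic ribosomal protein genes shifted by a small amount. All 120 means were below 0, 112 genes were below 0 on both arrays, and the median was -0.55 in a range from -0.96 to -0.09. Of them 11 (9.17%) were called, all lower, beside the 1.95% over all genes. RPL29 gave -1.10 and -0.82 (adjusted p = 0.0426), RPL42A -0.93 and -0.77 (adjusted p = 0.0287), and RPS17A -0.82 and -0.76 (adjusted p = 0.0319). The number called varied with the setting: 0 on the 2-array estimate, 5 and 1 without experiment 1 and 2, 6 after centring, 31 after scaling and 46 with a dye term. Many of these genes come in near-identical pairs. The 85 ribosome biogenesis genes had a median of -0.21, and the 1 call was upward, NOP12, at 2.04 and 2.29 (adjusted p = 0.00289).

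Of the remaining lists, the flocculation list had 1 of 8 higher, BSC1, a mucin-like gene, at 2.58 and 2.80. The list of multidrug and organic acid transporters had SGE1 higher (1.59 and 0.80) and TPO1 and PDR16 lower (means -0.87 and -0.73) among 16. Called higher were 12.5% of the flocculation list and 6.25% of the multidrug list, beside 5.2% over all genes. Called lower were 12.5% of the multidrug list, beside 1.95% over all genes. SGE1, TPO1 and PDR16 lost their calls on the 2-array estimate, as did GND1, GTT1, MET13 and FUS1 of the lists above. No gene was called among 16 of the vacuolar proton ATPase, 30 of the proteasome, 26 of autophagy and 3 markers of the strain. Over all genes 7.16% were called, and for the smaller of these lists no call is close to that share. Over all 38 lists 148 of the 341 called genes were members and 193 were not.

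**Figure D4:**
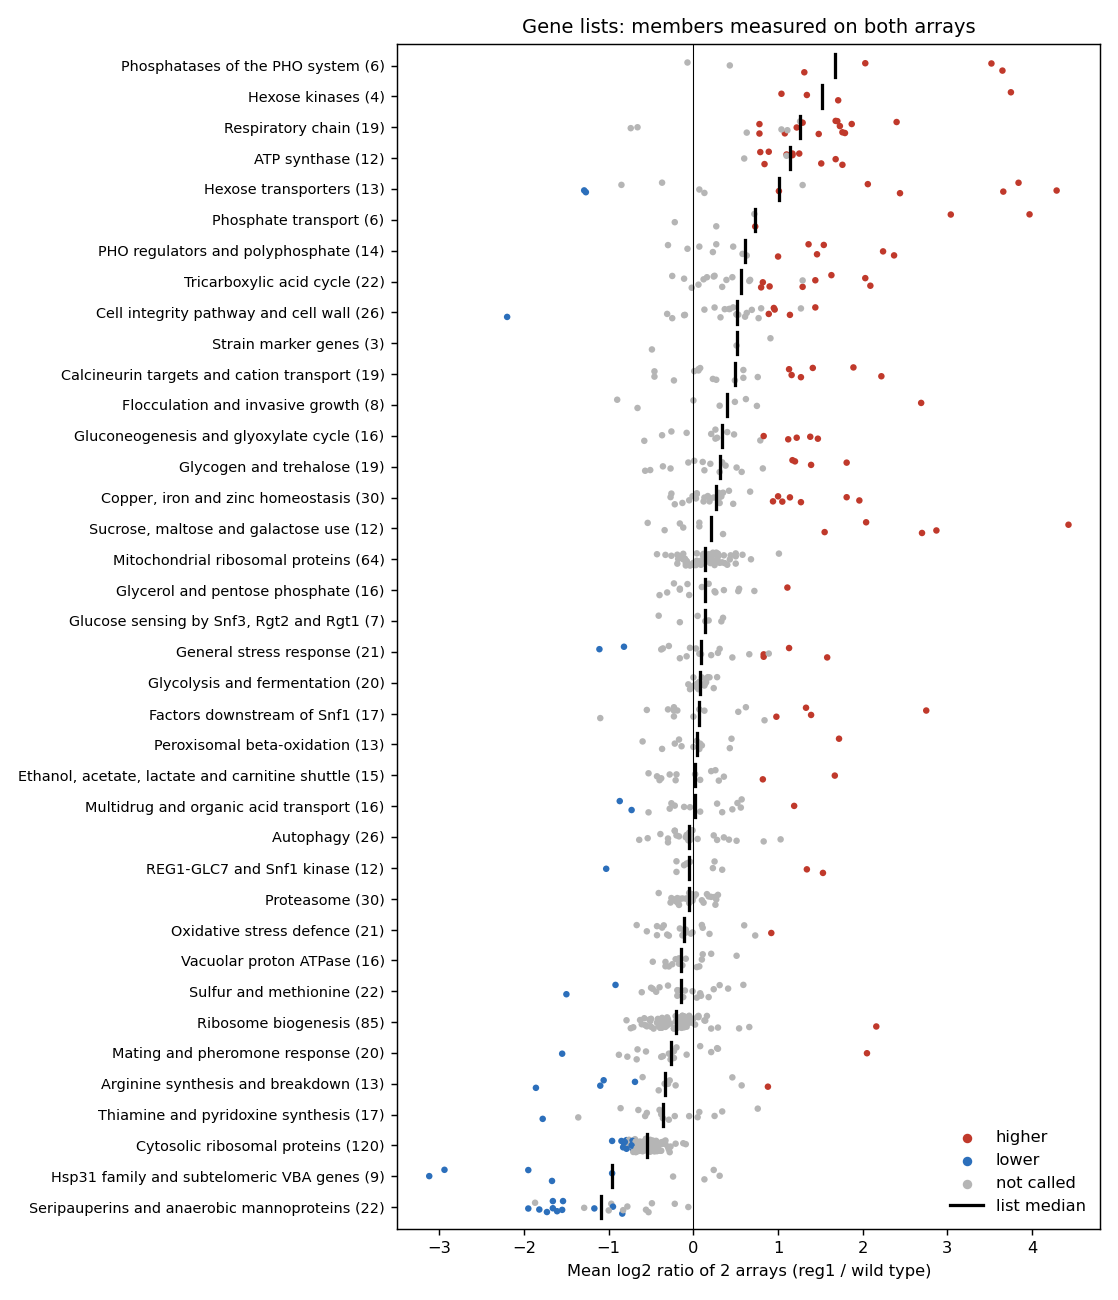
Mean log2 ratio of reg1 over wild type (horizontal axis) for the members of each gene list that were measured on both arrays, 1 point per gene, with the number of genes in parentheses and the list's median as a bar. Red points were called higher and blue points lower; medians run from 1.67 for the PHO phosphatases to -1.09 for the seripauperins.

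The mutant effect was compared with the alkali effect in reg1 cells, over the 4315 genes measured on all 4 arrays. The alkali ratio is taken as KOH over KCl, the likely direction from the titles, and every direction below rests on that. With the ratio turned, higher and lower under alkali change places, 2298 differences are called, and the mutant ratio is above for 7 of 18 respiratory chain genes and none of 116 cytosolic ribosomal protein genes. The comparison does not involve wild-type cells. The difference between both ratios was called for 1652 genes (38.3%), with the mutant ratio above for 870 and the alkali ratio above for 782. Of the 240 genes higher in reg1 that could be compared, 140 (58.3%) were also higher under alkali, which is 11.8% of the 1185 genes higher under alkali, and 34 (14.2%) were lower under alkali. Over all 4315 genes 27.5% were higher and 33.8% lower under alkali. Of the 73 genes lower in reg1, 26 (35.6%) were higher and 30 (41.1%) lower under alkali. Both sets of calls use the same estimate of the spread for each gene. A gene whose arrays vary little is thus more readily called in both, and how far this raised these shares was not tested.

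Respiratory genes differed between the comparisons. The respiratory chain had a median of 1.26 in the mutant and -0.54 under alkali, and the mutant ratio was called above the alkali ratio for 14 of 18 genes and below it for none. For ATP synthase the medians were 1.14 and -1.02, with 11 of 12 genes above. INH1 had a difference of 2.96 (adjusted p = 0.00153, limma). The ribosome lists also differed in size: cytosolic ribosomal proteins had medians of -0.55 and -1.67, with the mutant ratio above for 97 of 116 genes, and ribosome biogenesis had -0.21 and -1.78, with 62 of 74 above.

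Glycogen and trehalose genes went the other way, with medians of 0.31 in the mutant and 2.83 under alkali and the alkali ratio called above for 17 of 19 genes. Of the arginine genes that fell in the mutant, ARG1 had 1.59, ARG4 1.46 and ARG56 2.10 under alkali, with differences of -3.45, -2.52 and -3.20 (adjusted p = 0.00379, 0.00252 and 0.00226). SUL2 had 2.06 under alkali and MET13 2.52 (adjusted p of the differences 0.00192 and 0.00135). The seripauperins had a median of 0.49 under alkali, with the alkali ratio above for 7 of 14 genes and the mutant ratio above for none.

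Sugar and phosphate genes were mixed. The difference was called for SUC2 at 4.28, HXT4 at 4.66, HXT7 at 4.20 and PHO5 at 4.22, all with the mutant ratio above, and SUC2 had an alkali ratio of 0.14. HXT5 and PHO89 had higher ratios under alkali, 4.86 and 5.57, with differences of -3.85 and -1.60 (adjusted p = 0.00134 and 0.00488). For ADR1, 2.75 in the mutant and 3.14 under alkali, and for PHO81, 1.46 and 1.43, the difference was not called (adjusted p = 0.178 and 0.931). With arrays scaled to the same spread, 287 differences were called in place of 1652.

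**Figure D5:**
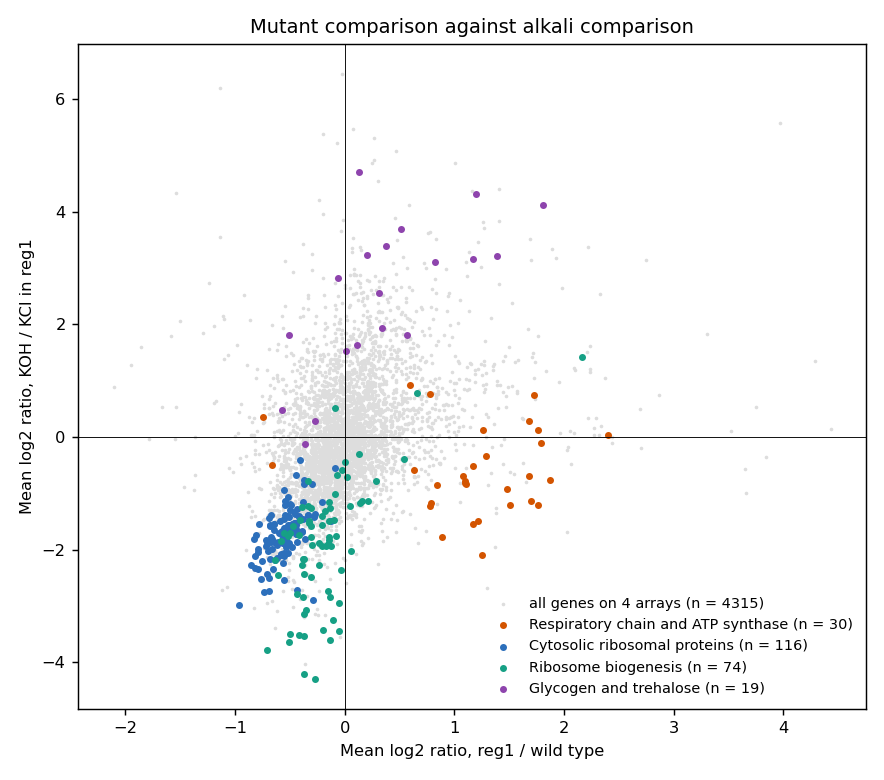
Mean log2 ratio of reg1 over wild type (horizontal axis) against the mean log2 ratio of KOH over KCl in reg1 (vertical axis), 1 point per gene measured on all 4 arrays. Respiratory chain and ATP synthase genes (orange) lie to the right and mostly below 0, ribosomal protein genes (blue) and ribosome biogenesis genes (green) lie low, and glycogen and trehalose genes (purple) lie high.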

How the data were processed

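The authors deposited 1 table of log2 ratios, 1 column per array. The log base is not stated and was taken as 2 from the values. Per the labels, the authors left out spots under 120 μm or under 100 intensity units. No source used here gives the scanner, background correction or normalization. Ratios carry no depth, so the number of arrays limits the precision. Symbols came from an R64 gene table by locus tag for 5662 of 6212 rows, and no coordinates are given.

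Of the tested rows, 63 (9 of them called) lay within 20 rows of a change of register. A linear model (lmFit, eBayes) was fitted to all 4 arrays in limma 3.58.1 under R 4.3.3, with a prior of 3.683 degrees of freedom. Benjamini-Hochberg adjustment ran over the 4765 rows measured on both mutant arrays, and over 4315 for the difference between comparisons. A further 352 rows had 1 mutant array and were not tested. The fit was tested on simulated data.

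The rule named REG1, the 25 highest and 25 lowest called genes more than 20 rows from a change of register, every measured gene of the Reg1, Snf1, sugar and phosphate lists, the called and up to 4 largest genes of each other list, and genes 2-fold on opposite sides. The neighbours of REG1 and uncalled members beyond this rule (such as ENA2, SDH3 and AFT1) were chosen after their values were seen. Members and lists were chosen with earlier results of these data known. Same-numbered arrays of both comparisons had deviations correlating at r = -0.0923 across genes and the labels pair nothing, so no block was used. Alternatives changed the arrays sharing the spread, dye, block, centring, scale, rows, register and threshold. Promoter motifs were not analysed here.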

Additional observations from a re-analysis of the deposited data

How the results depend on the processing

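With 2 arrays, calls depend on which arrays share the estimate of the spread. How far each spot stood above background is not known, so no bound is given for the deepest decreases. Genes called were 153 (124 higher, 29 lower) with the spread from the 2 mutant arrays alone, and all 124 and 29 were among the 248 and 93. The same counts without either alkali array follow by construction. A dye term over the 4315 rows with 4 values gave 678 (420 and 258), and arrays scaled to 1 spread gave 548 (373 and 175), with 287 differences from alkali. The 2514 rows from YBR048W to YKL010C gave 167 (131 and 36) and 803 differences, as fewer rows were tested. Against a 1.5-fold change limma's treat gave 92 (77 and 15) and 582 differences. Leaving out 1 array gave 153 to 240 genes, 124 to 197 higher, 29 to 45 lower and 368 to 2052 differences; where 1 mutant array was left, it was assumed to vary like the alkali arrays. At 1.5-fold on both arrays 289 genes were higher and 139 lower, and at 4-fold 31 and 3. Higher genes were 72.7% of calls, 81.0% with the mutant arrays alone, 61.9% with the dye term and 68.1% with scaling.

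With the experiment number as replicate block, over rows with 4 values, 363 genes were called (277 and 86) and 1741 differences; the numbers do not pair the samples, and of the named genes only ARG7 lost its call under the block. With the alkali ratio turned, a setting added after seeing the data, 2298 differences were called. Centring gave 342 calls (271 and 71), and robust eBayes 352.

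With the table as deposited, 404 genes were called (289 and 115), of which 149 and 48 were shared with the realigned table in the same direction and 6 were opposite. Of the named genes 32 then changed sign, since another row's value stands at the name: MDH1 -0.20, RPS21A 0.19, PUF3 -0.37, HSP104 -0.38, TPO1 0.83, SDH2 -0.38, PAU18 0.59, IDP2 -0.15, RPS28B 0.03, ATP14 -0.11, ACO1 -0.61, YML045W -0.28, CYB2 -0.38, NDI1 -0.54, PHO84 -0.14, YMR051C -0.52, ISF1 -0.07, CAT8 -0.42, COX5A -0.66, PDR16 0.17, THI12 0.03, PHO80 -1.61, NOP12 -0.54, ATP19 -0.47, WSC3 -0.04, FRE7 -0.31, CYT1 -0.37, FIT2 -0.36, VTC3 -0.13, ATP4 -0.04, ATP20 -0.28 and SGE1 -0.29. Under the other settings no called gene among the named ones changed sign. Of the 375 named genes, 68 lost their call with the mutant arrays alone, 67 without experiment 1 and 57 without experiment 2.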

Other observations

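The genes of this section belong to no list of the report or were singled out after their values were seen, so they are descriptions. ISF1, a gene linked to respiratory function, gave 3.26 and 3.34 and was the highest gene outside the lists. Its relative MBR1 gave 1.33 and 1.39. Other genes linked to mitochondria were picked because they were called. RPM2, a protein subunit of mitochondrial RNase P, gave 2.37 and 2.50, and PUF3, which binds mRNAs of mitochondrial proteins, gave 2.06 and 2.43. AEP1, a translation factor, gave 2.05 and 1.63, DSS1, an exonuclease, 1.56 and 1.93, and RPO41, the mitochondrial RNA polymerase, 0.92 and 0.70. The membrane protein genes OM14 (1.57 and 1.91), POR1, the porin (1.05 and 0.99), and MIC60 (1.49 and 0.85) were called too. RPO41, POR1 and MIC60 lost their calls on the 2-array estimate.

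Called genes of nitrogen use lay on both sides of 0. The glutamate dehydrogenase genes GDH2, which releases ammonium, and GDH1, which takes it up, gave 1.97 and 2.68, and 2.12 and 1.19. GDH3, close to a change of register, gave 0.98 and 1.20. The permease genes PTR2 (peptides), BAP2 (branched-chain amino acids) and AGP1 (general amino acids) had means of 1.57, 1.12 and 0.92. The proline permease gene PUT4 gave -1.64 and -1.44, the proline oxidase gene PUT1 -1.22 and -1.06, the ammonium permease gene MEP2 -1.40 and -1.33, and the serine and threonine deaminase gene CHA1 -1.08 and -1.30. Under alkali PUT4 had 4.33 and PUT1 3.55 (adjusted p = 0.000674 for both differences, limma). GDH3, BAP2, AGP1 and PUT1 lost their calls on the 2-array estimate. PUT4 lost its call without experiment 1 and MEP2 when either mutant array was left out. The neighbouring genes BDH1 and BDH2, for a butanediol dehydrogenase and its relative, gave 1.96 and 1.18, and -1.32 and -0.97, on opposite sides, in rows near a change of register, and BDH2 lost its call on the 2-array estimate.

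Several unnamed frames were among the 25 highest. YJR026W gave 2.64 and 2.05, YJR028W 2.40 and 2.17, YMR051C 2.45 and 2.18, YML045W 2.59 and 1.96, and YML040W 2.49 and 2.05. YJR027W and YJR029W, the names beside them, had means of 1.31 and 1.19, and a row that the table names YFL-TyA gave 1.25 and 1.32. The values of 3 of these, YMR051C, YML045W and YML040W, come from displaced rows, and the others were read at their names. Under alkali YJR026W, YJR028W, YMR051C, YML045W and YML040W had means between 0.03 and 0.33. In the mutant the means of these 5 lay between 2.27 and 2.34. Whether these rows share sequence or signal was not tested, so they may not be separate measurements.

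By order in the R64 gene table, the 15 outermost genes of each chromosome end made up 285 of 4742 tested genes (6.01%). They were 25 of the 93 genes called lower (26.9%), 13 of the 25 lowest (52%), 38 of 247 called higher (15.4%) and 7 of the 25 highest (28%). Of the outermost genes 8.77% were called lower and 13.3% higher, against 1.53% and 4.69% of the others. Families of near-identical genes, such as the seripauperins, lie there, so these are not independent genes, and the part of shared signal in these shares was not tested.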
